A study of Mus musculus with 9 samples.

Results

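The circadian clock genes considered here are 10 listed genes: Clock, Npas2, Per1, Per2, Per3, Nr1d1, Nr1d2, Dbp, Tef and Hlf. They were chosen by name, and each was read at the probe set that carries its symbol alone and has the highest mean over all arrays. The annotation used held such a probe set for 9 of the 10, out of 19935 genes in all. Npas2 was not analysed here. The hearts came from 4 Ezh2-deficient adult mice, whose genotype is given as Ezh2f/f;Mef2cAHF::Cre, and from 5 wild-type adult mice, given as Ezh2f/f, all on a mixed C57BL/6 background. Cre recombinase was under control of an enhancer of Mef2c from the anterior heart field, active in embryonic progenitors of the right ventricle, septum and outflow tract. Both groups carry floxed Ezh2 alleles and only the Ezh2-deficient group carries Cre, so that loss of Ezh2 and presence of the Cre transgene cannot be told apart. Wild-type titles, at odds with the genotype field, give 1 floxed and 1 wild-type allele. RNA of the right ventricle and interventricular septum was hybridised to 1 Affymetrix array per heart.

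The circadian clock of mammalian cells is a feedback loop of transcription. CLOCK or its relative NPAS2 pairs with ARNTL (BMAL1) and switches on the Per and Cry genes, whose proteins then block that pair. The same pair drives Nr1d1 and Nr1d2, which encode the REV-ERB nuclear receptors that repress Arntl, Npas2 and Clock, and it drives the output factors Dbp, Tef and Hlf. In mouse heart, as in other tissues, the Per, Nr1d and PAR bZIP genes therefore peak at another time of day than Arntl, Npas2 and Clock. The labels give no hour of collection.

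The promoters of members with a match to a known control element are shown because the same genes are compared heart by heart afterwards. The RefSeq promoter table (GRCm38.p6) gave windows of 300 bases, from 250 before to 50 after a start of transcription, for 8 of the 9 measured members; the remaining one is Per2. Capitals mark matches on either strand to the E-box CACGTG, bound by CLOCK and ARNTL, or to the D-box TTATGTAA, bound by DBP, TEF and HLF.
Per1, upstream start: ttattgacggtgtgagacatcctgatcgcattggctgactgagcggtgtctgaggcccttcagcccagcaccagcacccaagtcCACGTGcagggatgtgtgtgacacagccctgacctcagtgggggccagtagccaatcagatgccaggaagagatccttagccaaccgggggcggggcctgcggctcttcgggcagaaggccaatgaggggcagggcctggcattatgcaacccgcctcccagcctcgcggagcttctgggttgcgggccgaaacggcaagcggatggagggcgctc
Tef, upstream start: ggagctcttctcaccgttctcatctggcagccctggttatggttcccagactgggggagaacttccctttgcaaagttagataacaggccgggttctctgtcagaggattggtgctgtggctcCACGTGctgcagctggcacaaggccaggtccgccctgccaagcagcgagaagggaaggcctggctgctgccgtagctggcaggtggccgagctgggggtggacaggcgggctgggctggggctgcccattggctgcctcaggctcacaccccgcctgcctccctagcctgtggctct
Tef, downstream start: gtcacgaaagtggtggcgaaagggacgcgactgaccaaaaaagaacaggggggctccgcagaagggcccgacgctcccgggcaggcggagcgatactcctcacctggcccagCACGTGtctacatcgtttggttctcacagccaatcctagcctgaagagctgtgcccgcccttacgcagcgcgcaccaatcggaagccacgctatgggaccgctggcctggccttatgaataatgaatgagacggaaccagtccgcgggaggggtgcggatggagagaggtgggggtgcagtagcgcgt
Per3: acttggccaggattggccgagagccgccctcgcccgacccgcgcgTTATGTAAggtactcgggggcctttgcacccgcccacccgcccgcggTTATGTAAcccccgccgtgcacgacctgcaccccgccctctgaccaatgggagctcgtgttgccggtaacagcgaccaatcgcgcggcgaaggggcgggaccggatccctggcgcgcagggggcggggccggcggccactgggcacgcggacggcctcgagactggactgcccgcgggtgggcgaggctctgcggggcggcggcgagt
The Per1 window lies at chr11:69098699-69098998 on the plus strand, and its E-box begins 166 bases before the start. The Tef windows lie at chr15:81802423-81802722 and chr15:81811164-81811463 on the plus strand, with an E-box beginning 127 and 138 bases before each start. The Per3 window lies at chr4:151044616-151044915 on the minus strand, and its 2 D-boxes begin 205 and 158 bases before the start. An E-box was thus matched in 2 of 8 members, against 8.09% of 27025 genes in the table, and a D-box in 1 of 8, against 1.11%. The element bound by REV-ERB and ROR receptors (A, A, any base, T, any base, then GGTCA) was matched in 0 of 8 members and in 0.714% of genes. A match describes the letters of these windows and says nothing of binding.

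Before the values, some properties of the arrays bear on them. The median log2 value of an array was 7.19 to 7.25, and any 2 arrays correlated at a Pearson r of 0.990 to 0.997 across probe sets. Sample titles carry a letter, x or e, whose meaning the labels do not give. Letter x marks Ezh2-deficient hearts 2 and 3 and wild-type hearts 3, 4 and 5, and letter e marks Ezh2-deficient hearts 1 and 4 and wild-type hearts 1 and 2. Ezh2-deficient heart 3 stood apart on the second principal component and wild-type hearts 4 and 5 on the first. By Xist and Y-linked genes 2 Ezh2-deficient hearts (1 and 3) and 1 wild-type heart (4) came from females. A prime follows the letter in the titles of Ezh2-deficient heart 2 and wild-type hearts 3 and 5. Within letter x these are the males, so sex and prime cannot be told apart there. Ezh2 itself read 8.88 ± 0.11 in Ezh2-deficient hearts (SD, n = 4) and 8.73 ± 0.12 in wild-type hearts (SD, n = 5), a difference of 0.15 that was not past the threshold (limma adjusted p = 0.485). That probe set does not check the labels, since its position in the transcript is unknown here. The mean of 10 cardiomyocyte markers lay between 13.40 and 13.63 in Ezh2-deficient hearts and between 13.58 and 13.68 in wild-type hearts.

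No clock gene passed the test for genotype. By limma's test 0 of the 9 members passed at an adjusted p of 0.05 over all probe sets, where 10 of 28815 (0.0347%) did. At an unadjusted p under 0.05 there were also 0 of the 9, against 10.7% of all probe sets. The groups overlapped at each of the 9, whereas they did not overlap at 3.71% of probe sets. The median difference over the 9 members, Ezh2-deficient minus wild type, was -0.16 on the log2 scale, beside -0.003 over all genes. With the title letter in the fit the member median was -0.09. Without the letter, the median absolute difference was 0.16 over the members and 0.061 over all genes. In contrast, 8 of the 9 members were higher in the hearts of letter x than in those of letter e, and 6 of the 9 did not overlap between the letters, against 3.96% of all probe sets. This comparison by letter was added after the members had been seen to follow it. Its p-values for clock genes therefore describe the pattern and are no independent test of it. Values below are log2 expression values, and adjusted p-values come from limma with Benjamini-Hochberg adjustment over all 28815 probe sets.

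Clock, which encodes the DNA-binding partner of ARNTL, was the member that ran against the others. It read 9.35 and 9.40 in Ezh2-deficient hearts of letter x and 9.70 and 9.70 in those of letter e. Wild-type hearts read 9.41, 9.53 and 9.40 under letter x and 9.80 and 9.63 under letter e. All letter e hearts lay above all letter x hearts, in both genotypes. The genotype difference was -0.02 (SE 0.11, adjusted p = 0.973), with a 95% interval from -0.25 to 0.22. The letter difference, x minus e with genotype in the fit, was -0.30 (SE 0.05, adjusted p = 0.12).

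Arntl, the partner of Clock and no member of the list, showed the same order with a larger span. It read 6.99 and 7.46 in Ezh2-deficient hearts of letter x and 8.04 and 8.43 in those of letter e. In wild-type hearts it read 6.68, 6.68 and 6.75 under letter x and 8.43 and 7.98 under letter e. The letters did not overlap, and Arntl was 2.43 times as high in letter e hearts as in letter x hearts (x minus e -1.28, SE 0.15, adjusted p = 0.0599). Its genotype difference of 0.43 (SE 0.43, adjusted p = 0.757) was no larger than its standard error. This value of 0.0599 was the smallest adjusted p of the letter comparison and was shared by 15 probe sets, so that 0 of 28815 (0%) passed, while 3739 (13.0%) had an unadjusted p under 0.05.

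The 3 Per genes encode the repressors that close the loop, and they differed among themselves. Per3 read 8.74 and 8.03 in Ezh2-deficient hearts of letter x and 7.76 and 7.83 in those of letter e. Wild-type hearts read 8.98, 8.96 and 8.999 under letter x and 7.84 and 7.97 under letter e. The letters were apart in each genotype, by 0.59 in Ezh2-deficient and 1.08 in wild-type hearts. Per3 had the largest genotype difference of the members, -0.46 (SE 0.30, adjusted p = 0.624; exact two-sided permutation p = 0.238). Its letter difference was 0.86 (SE 0.14, adjusted p = 0.111). Over fits with 1 array left out that difference ranged from 0.77 to 1.03, with an adjusted p between 0.00105 and 0.303. The value of 1.03 (adjusted p = 0.00105) came without Ezh2-deficient heart 3, the lowest letter x heart at Per3. Leaving out the lowest heart widens the contrast, so this smaller p is no support for it.

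Per2 followed Per3 with 1 heart out of place. It read 8.16 and 7.71 in Ezh2-deficient hearts of letter x and 7.72 and 7.46 in those of letter e, against 8.04, 8.43 and 8.29 in wild-type hearts of letter x and 7.29 and 7.54 in those of letter e. Ezh2-deficient heart 3, of letter x, lay within the range of letter e. The letter difference was 0.62 (SE 0.14, adjusted p = 0.177) and the genotype difference -0.16 (SE 0.24, adjusted p = 0.851). Per1, which also responds to glucocorticoids and other acute signals, overlapped between the letters. Its values were 9.34 and 8.71 in Ezh2-deficient hearts of letter x and 9.28 and 8.995 in those of letter e. In wild-type hearts they were 9.06, 9.09 and 9.23 under letter x and 8.42 and 9.11 under letter e. The letter difference of 0.15 (SE 0.18, adjusted p = 0.788) and the genotype difference of 0.10 (SE 0.18, adjusted p = 0.879) were each smaller than their standard error. Without wild-type heart 1 the letter difference of Per1 was -0.06 and its genotype difference -0.04.

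**Figure D1:**
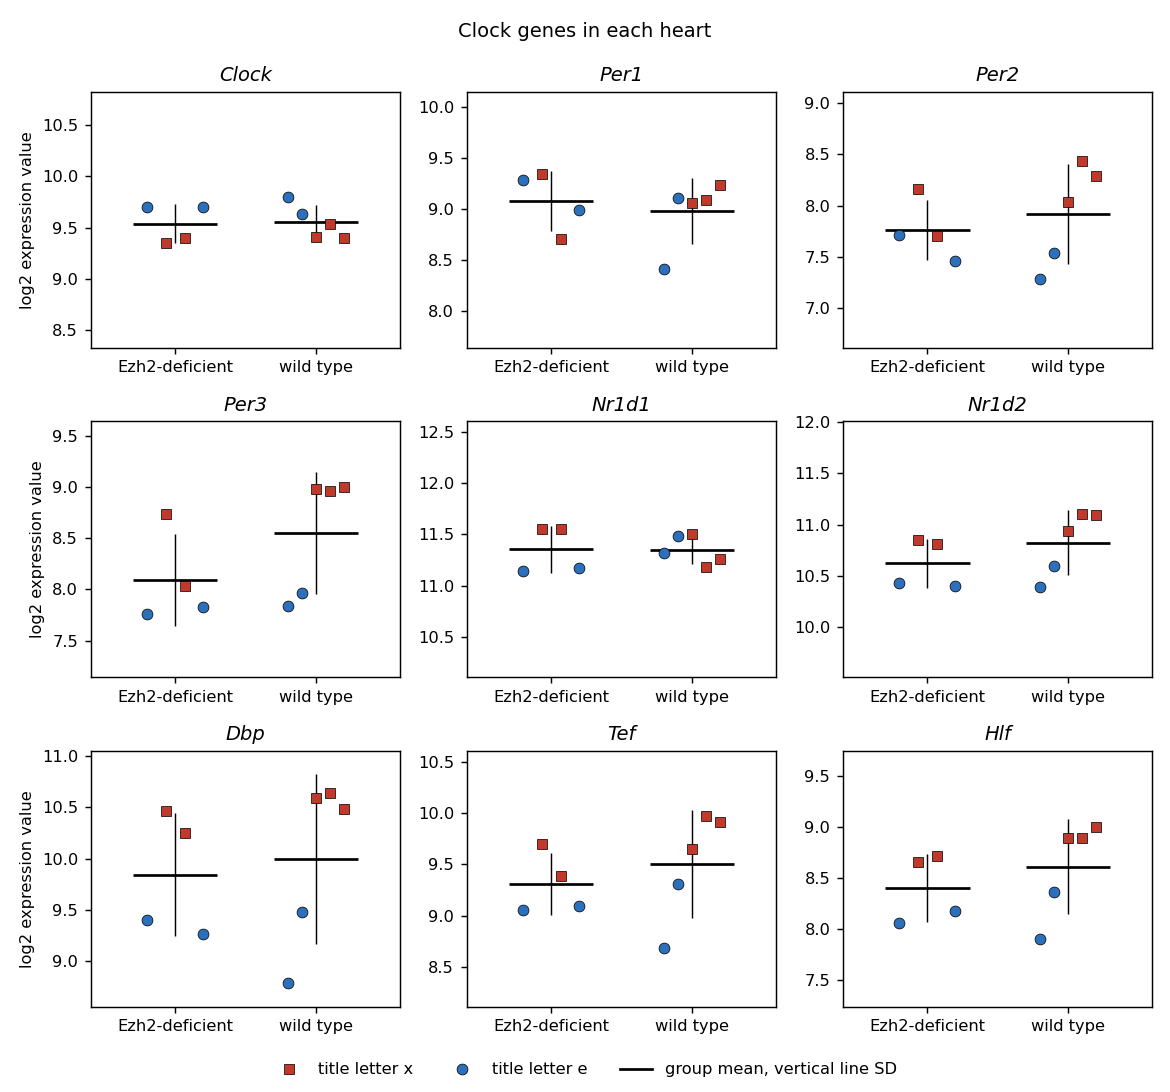
Log2 expression value (vertical axes, each spanning 2.5 units) of 9 clock genes in 4 Ezh2-deficient and 5 wild-type hearts, with squares for title letter x, circles for letter e, horizontal lines for group means and vertical lines for SD. Dbp sits between 10.25 and 10.64 in letter x hearts and between 8.78 and 9.48 in letter e hearts of both genotypes.

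The nuclear receptor genes also split, Nr1d2 being apart by letter and Nr1d1 overlapping. Nr1d2 read 10.85 and 10.81 in Ezh2-deficient hearts of letter x and 10.43 and 10.40 in those of letter e. Wild-type hearts had 10.93, 11.10 and 11.09 under letter x and 10.39 and 10.60 under letter e. The letters did not overlap, and the spread within a letter was small. Its letter difference of 0.49 had the smallest standard error but one of the members (SE 0.06, adjusted p = 0.0599). The genotype difference was -0.20 (SE 0.17, adjusted p = 0.691).

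Nr1d1 encodes REV-ERB alpha and is among the genes with the strongest daily rhythm in mouse tissues. It read 11.55 and 11.56 in Ezh2-deficient hearts of letter x and 11.14 and 11.17 in those of letter e, whereas wild-type hearts had 11.50, 11.18 and 11.26 under letter x and 11.32 and 11.48 under letter e. Letters were apart in Ezh2-deficient hearts, by 0.40, and mixed in wild-type hearts, at -0.09. The genotype difference was 0.24 within letter x and -0.24 within letter e, and it was 0.01 over all hearts (SE 0.11, adjusted p = 0.993). A test of the genotype by letter interaction gave 0.48 for Nr1d1 (SE 0.15, unadjusted p = 0.0106, limma adjusted p = 0.732). Nr1d1 was the 1 member of 9 with an unadjusted interaction p under 0.05, against 6.12% of all probe sets, and 0 members passed after adjustment. The count at an unadjusted p changed with single arrays left out. Without wild-type heart 3 it was 2 (Per2 and Nr1d1), and without wild-type heart 4 or 5 it was 1 (Nr1d1). The shares of all probe sets in these fits are not given here. Leaving out any other heart keeps 1 heart in a combination of genotype and letter, so no count is given there. With 1 array left out the interaction ranged from 0.40 to 0.58 for Nr1d1, from -0.77 to -0.07 for Dbp and from -0.82 to -0.13 for Per1. These ranges of effect size take in the fits that keep 1 heart in a combination of genotype and letter.

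Dbp, Tef and Hlf encode the PAR bZIP factors, a family of transcription activators which bind D-boxes and pass the rhythm to metabolic genes. Dbp had the widest range of the members, 1.86. It read 10.46 and 10.25 in Ezh2-deficient hearts of letter x and 9.40 and 9.26 in those of letter e, against 10.59, 10.64 and 10.48 in wild-type hearts of letter x and 8.78 and 9.48 in those of letter e. Letter x hearts were 2.39 times as high as letter e hearts, with a difference of 1.255 (SE 0.14, 95% interval 0.93 to 1.58, adjusted p = 0.0599). That difference was 1.03 within Ezh2-deficient and 1.44 within wild-type hearts. The genotype difference of Dbp was -0.15 (SE 0.42, adjusted p = 0.927), with a 95% interval of -1.09 to 0.79.

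Tef and Hlf ranked the hearts in much the same way. Tef read 9.70 and 9.39 in Ezh2-deficient hearts of letter x and 9.05 and 9.09 in those of letter e, and 9.65, 9.98 and 9.91 in wild-type hearts of letter x and 8.69 and 9.31 in those of letter e. Hlf read 8.66 and 8.71 in Ezh2-deficient hearts of letter x and 8.07 and 8.18 in those of letter e, and 8.90, 8.89 and 9.003 in wild-type hearts of letter x and 7.91 and 8.37 in those of letter e. Neither overlapped between the letters. The letter difference was 0.68 for Tef (SE 0.14, adjusted p = 0.157) and 0.69 for Hlf (SE 0.09, adjusted p = 0.0682). The genotype difference was -0.20 for Tef (SE 0.25, adjusted p = 0.818) and -0.21 for Hlf (SE 0.24, adjusted p = 0.784).

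**Figure D2:**
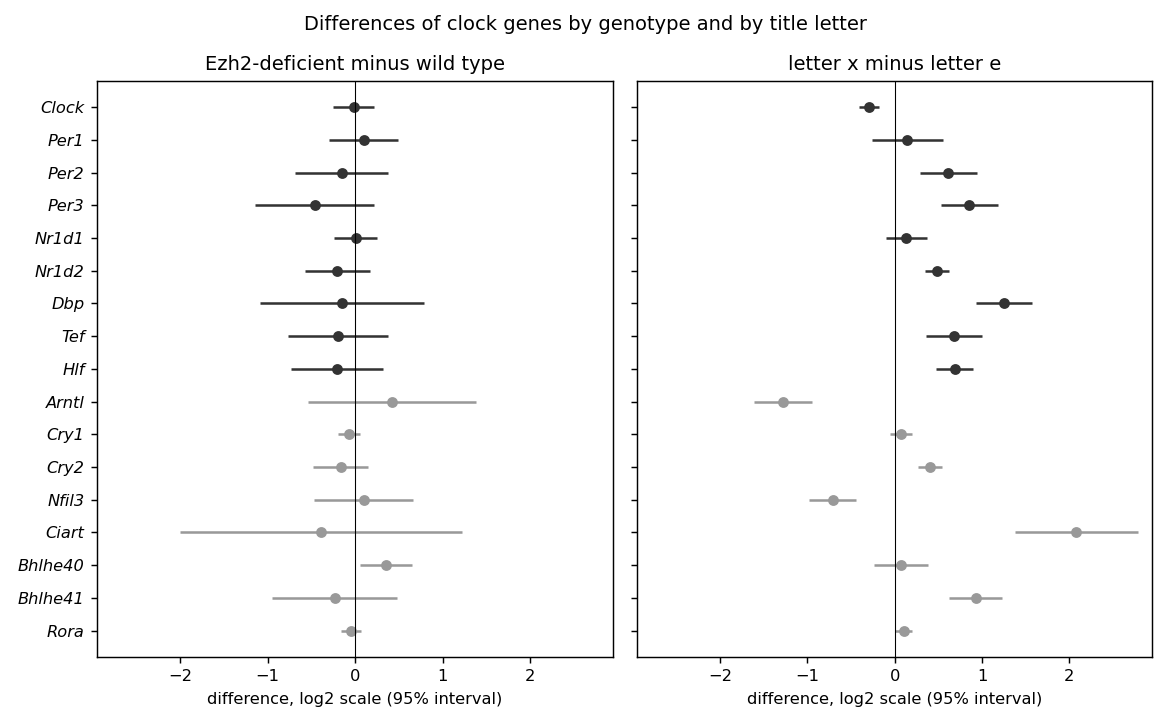
Differences on the log2 scale with 95% intervals from limma, for Ezh2-deficient minus wild type (left) and letter x minus letter e with genotype in the fit (right), with listed clock genes in black and other clock genes in grey. The genotype intervals of all 9 listed genes include 0, whereas the letter intervals of 7 of them do not.

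In the letter comparison 7 of the 9 members had an unadjusted p under 0.05, against 13.0% of all probe sets, and 0 passed after adjustment. Because the comparison was chosen from these same values, the counts and calls below are descriptive. The call depended on the setting. With a further quantile normalization Nr1d2 and Dbp passed (adjusted p = 0.0471 for each), among 13 probe sets that did. With dim probe sets left out Nr1d2, Dbp (0.0358 for each) and Hlf (0.0403) passed, among 27 probe sets. With array weights Per3, Nr1d2 and Dbp passed, among 36. With centring, a variance trend or Y-linked genes as a covariate 0 members passed. Without wild-type heart 1 Dbp passed (1.06, adjusted p = 0.0123), the 1 probe set that did. With other single arrays left out the adjusted p of Dbp went up to 0.192. Without wild-type hearts 4 and 5, which stood apart, the letter difference was 1.20 for Dbp, 0.79 for Per3, 0.64 for Hlf, 0.55 for Tef, 0.46 for Per2, 0.43 for Nr1d2 and -0.32 for Clock. The median absolute letter difference was 0.62 over the 9 members and 0.059 over all genes. By size of the letter difference among 19935 genes, Ciart ranked 1, Arntl 6, Dbp 7, Bhlhe41 18 and Per3 29, while Per1 ranked 3419 and Nr1d1 3916.

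Opposite-phase members were then set side by side per heart, as deviations of each gene from its own mean over the 9 hearts. The mean deviation of the Per, Nr1d and PAR bZIP members was 0.29 and -0.0003 in Ezh2-deficient hearts 2 and 3 of letter x, where Clock deviated by -0.20 and -0.15. In Ezh2-deficient hearts 1 and 4, of letter e, it was -0.29 and -0.35, with Clock at 0.15 and 0.15. The signs were opposite in Ezh2-deficient hearts 1, 2 and 4, while in heart 3 the first measure averaged members on both sides, 4 of 8 above their own mean. There Per1 (-0.32), Per3 (-0.32) and Per2 (-0.14) were below it, and Dbp (0.32), Nr1d1 (0.20) and Hlf (0.19) were above it. In wild-type hearts 3, 4 and 5, of letter x, the mean deviation was 0.31, 0.39 and 0.39, with Clock at -0.14, -0.01 and -0.15. In wild-type hearts 1 and 2, of letter e, it was -0.57 and -0.16, with Clock at 0.26 and 0.08. Since the hearts fall into 2 sets by letter, with 5 and 4 hearts, no correlation between members over hearts was tested.

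**Figure D3:**
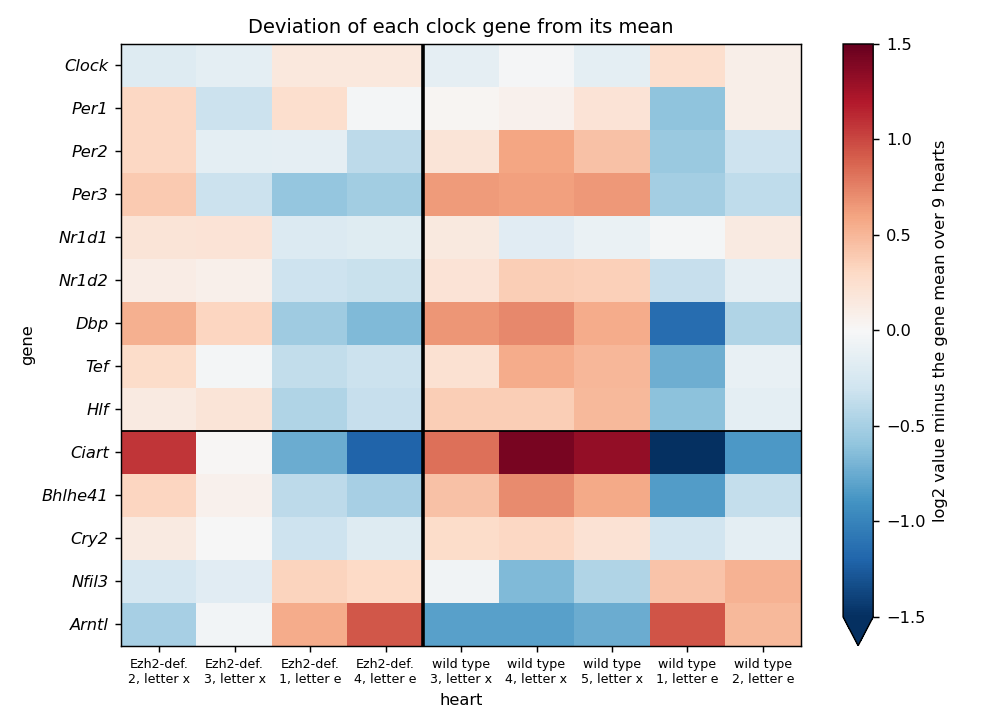
Deviation of each gene (rows) from its mean over 9 hearts on the log2 scale, in Ezh2-deficient hearts (left of the thick line) and wild-type hearts (right), with listed clock genes above the thin line. Arntl and Nfil3 have the opposite sign to Dbp in each column, and in Ezh2-deficient heart 3 Ciart is at 0.01, against 0.83 to 1.42 in the other letter x hearts.

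Ezh2-deficient heart 3, from a female and without a prime, had the lowest value of the 5 letter x hearts at 6 of the 9 members. It also had the highest Arntl among those hearts. The part of sex and prime in these values was not tested. Within letter x the 2 Ezh2-deficient hearts did not overlap the 3 wild-type hearts at 5 of the 9 members, against 26.2% of all probe sets: Per3, Nr1d2, Dbp and Hlf were lower and Nr1d1 was higher. Of these 2 hearts, heart 3 is the one that stood apart on the second principal component (-30.2). What that heart adds to this contrast was not tested. With the letter in the fit the median standard error of the genotype difference over the 9 members was 0.14, against 0.24 without it, while over all probe sets it was 0.0648 against 0.0674. In that fit 0 of the 9 members passed, with 17 of 28815 probe sets passing (0.0590%), and 2 had an unadjusted p under 0.05, against 12.2% of all probe sets. These were Per3 (-0.38, SE 0.14, limma adjusted p = 0.339) and Nr1d2 (-0.15, SE 0.06, adjusted p = 0.347), and Dbp was at -0.03 (SE 0.14, adjusted p = 0.959).

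Other genes of the clock, from a list written by name, were read in the same fits. Of 22 measured genes 0 passed for genotype and 4 had an unadjusted p under 0.05 (10.7% of all probe sets did), all higher in Ezh2-deficient hearts, with a list median of 0.02. The 3 with the smallest p were Rorb, a nuclear receptor of the ROR family (0.36, SE 0.08, adjusted p = 0.141), Bhlhe40, a repressor at E-boxes (0.35, SE 0.13, adjusted p = 0.386), and Csnk1d, a kinase of PER proteins (0.13, SE 0.05, adjusted p = 0.414). For the letter 0 passed and 10 of the 22 had an unadjusted p under 0.05 (13.0% of all probe sets did), 5 higher and 5 lower in letter x hearts. Ciart, a repressor of CLOCK and ARNTL, read 9.34 and 8.28 in Ezh2-deficient hearts of letter x and 7.52 and 7.07 in those of letter e, and 9.10, 9.69 and 9.59 in wild-type hearts of letter x and 6.42 and 7.41 in those of letter e. Its letter difference of 2.08 (SE 0.31, adjusted p = 0.0792) was the largest of all genes. Bhlhe41, the relative of Bhlhe40, differed by 0.93 (SE 0.14, adjusted p = 0.0776), and Cry2, a cryptochrome repressor, by 0.40 (SE 0.06, adjusted p = 0.0776). Cry1, the other cryptochrome, differed by 0.07 (SE 0.05, adjusted p = 0.633). Nfil3, which represses at the D-boxes that DBP, TEF and HLF activate, differed by -0.71 (SE 0.12, adjusted p = 0.113), the direction opposite to theirs.

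Genes whose pattern was most like that of Dbp were sought among the 9968 genes with the larger spread, by Pearson's r over the 9 arrays. The 5 highest were Bhlhe41 (0.98), Ciart (0.97), Hlf (0.96), Mid1ip1 (0.95) and Ankrd12 (0.95), and the 5 lowest were Kif14 (-0.98), Arntl (-0.97), Foxj2 (-0.93), Srgap1 (-0.93) and Irs1 (-0.93). These values describe likeness over arrays that share the contrast between the letters. After the mean of each letter was removed, r was 0.88 for Bhlhe41, 0.83 for Ciart, 0.78 for Ankrd12, 0.72 for Hlf and 0.63 for Mid1ip1. On the negative side it was then -0.92 for Srgap1, -0.76 for Arntl and Kif14, -0.45 for Irs1 and -0.21 for Foxj2. These genes were picked by r over the same arrays, and r with the letter means removed is not given for all 9968 genes. The values are therefore no test of likeness apart from the letter.

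Genes under clock control in mouse tissues were measured at 15 of 18 listed. For genotype 0 passed and 5 had an unadjusted p under 0.05, against 10.7% of all probe sets, all lower in Ezh2-deficient hearts, with a list median of -0.16. The smallest p-values were those of Kcnip2, a potassium channel subunit (-0.30, SE 0.06, adjusted p = 0.129), Ucp3, a mitochondrial carrier (-0.51, SE 0.14, adjusted p = 0.252), and Pdk4, a kinase that restrains pyruvate oxidation (-0.45, SE 0.16, adjusted p = 0.364). Their letter differences were -0.02 for Kcnip2, -0.10 for Ucp3 and -0.42 for Pdk4 (SE 0.10, adjusted p = 0.177). For the letter 0 passed and 8 of the 15 had an unadjusted p under 0.05, against 13.0% of all probe sets, 5 higher and 3 lower in letter x hearts, led by Tspan4, a tetraspanin (0.62, SE 0.07, adjusted p = 0.0599), with Pdk4 and Rgs16 (-0.30, SE 0.08, adjusted p = 0.205) lower.

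**Figure D4:**
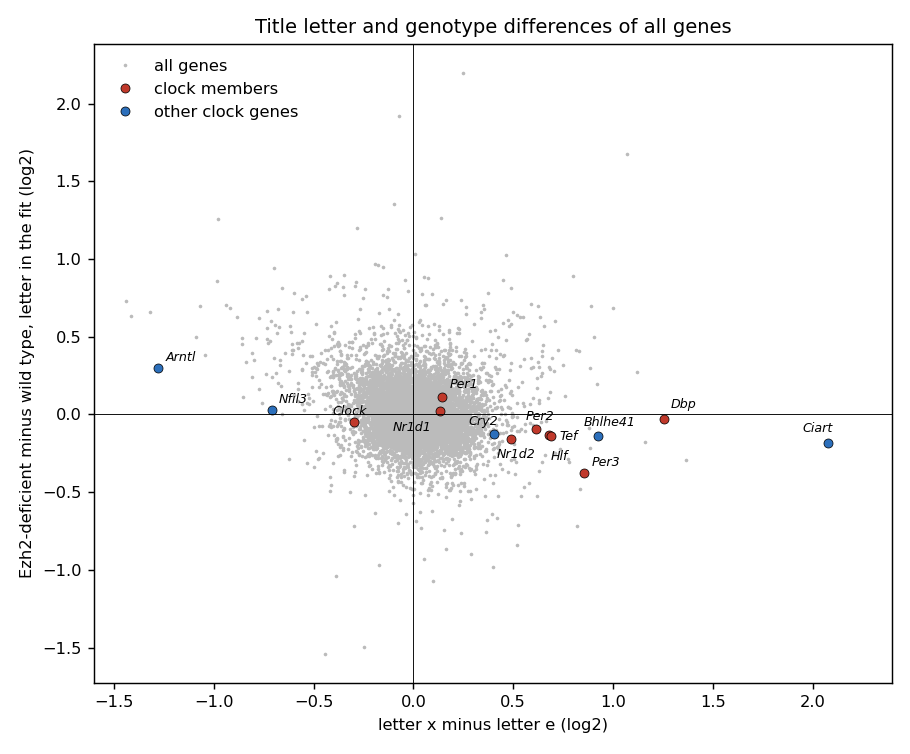
Letter difference (horizontal, x minus e) against genotype difference with the letter in the fit (vertical, Ezh2-deficient minus wild type), both on the log2 scale, for 19935 genes in grey, with listed clock genes in red and other clock genes in blue. Dbp, Per3, Bhlhe41 and Ciart lie on the right, at 1.255, 0.86, 0.93 and 2.08, and Arntl on the left at -1.28. Genes outside the clock also lie far out, such as Fmo2 at 1.16 and Atf3 at -1.32. The genotype difference of the listed genes lies between -0.38 and 0.11.

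Other gene lists were compared by letter as well, with 0 genes passing after adjustment in any of them, and their part in the clock values was not tested. The counts that follow are at an unadjusted p under 0.05, which 13.0% of all probe sets had for the letter and 10.7% for genotype. Of 14 immediate early genes, which respond within minutes to stimulation, 12 had an unadjusted p under 0.05 for the letter, all lower in letter x hearts, with a list median of -0.49. Fos differed by -1.09 (SE 0.19, adjusted p = 0.114), Jun by -0.48 (SE 0.08, adjusted p = 0.111) and Btg2 by -0.86 (SE 0.14, adjusted p = 0.0923). Their mean lay between 7.90 and 8.58 in letter x hearts and between 8.63 and 9.35 in letter e hearts. For genotype 4 of the 14 had an unadjusted p under 0.05, all higher in Ezh2-deficient hearts (list median 0.37). Egr1 (0.88, SE 0.25, adjusted p = 0.263), Ier2 (0.37, SE 0.09, adjusted p = 0.205) and Egr3 (0.25, SE 0.07, adjusted p = 0.252) had the smallest p.

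Temperature-responsive genes showed both directions by letter. Of 8 measured, 7 had an unadjusted p under 0.05, 5 lower and 2 higher in letter x hearts. The chaperone genes Dnajb1 (-0.60, SE 0.10, adjusted p = 0.0895) and Hspa1a (-0.71, SE 0.16, adjusted p = 0.171) were on the lower side, and the cold-induced Cirbp was at 0.41 (SE 0.07, adjusted p = 0.117). For genotype 2 of the 8 had an unadjusted p under 0.05, the heat shock genes Hspb1 (0.32, SE 0.11, adjusted p = 0.334) and Hsp90aa1 (0.30, SE 0.12, adjusted p = 0.415). Of 13 glucocorticoid-responsive genes 7 had an unadjusted p under 0.05 for the letter, 3 higher and 4 lower, among them Errfi1 (-0.81, SE 0.19, adjusted p = 0.186) and Dusp1 (-0.49, SE 0.13, adjusted p = 0.199), and 1 had for genotype, Pdk4.

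Markers of cell types were read in the same way, and their part in the clock values was likewise not tested. At an unadjusted p under 0.05 for the letter, where all probe sets gave 13.0%, there were 4 of 10 fibroblast, 4 of 10 endothelial, 3 of 6 smooth muscle, 1 of 8 macrophage, 2 of 7 adipocyte, 0 of 4 erythrocyte, 0 of 6 lymphocyte and 3 of 10 cardiomyocyte markers. The list mean of smooth muscle markers was lower in every letter x heart (8.48 to 8.79) than in any letter e heart (8.80 to 9.10), with 6 of 6 genes on the lower side. That of adipocyte markers was higher in every letter x heart (7.001 to 7.56) than in any letter e heart (6.87 to 6.98). The list mean of fibroblast markers lay between 10.004 and 10.95 in letter x hearts and between 10.33 and 10.74 in letter e hearts. That of endothelial markers lay between 9.98 and 10.59 in letter x hearts and between 10.33 and 10.56 in letter e hearts. By genotype, where all probe sets gave 10.7%, 7 of the 10 fibroblast markers had an unadjusted p under 0.05, all higher in Ezh2-deficient hearts (list median 0.45), and so had 3 of the 10 endothelial markers. The highest list mean of fibroblast (10.95), endothelial, macrophage, adipocyte, lymphocyte and erythrocyte markers was each in an Ezh2-deficient heart of letter x. So was the lowest list mean of cardiomyocyte markers (13.40). In these pieces of whole tissue fewer cells of a type and less RNA per cell cannot be told apart.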

How the data were processed

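Expression was measured on Affymetrix arrays, 1 for each of 4 Ezh2-deficient and 5 wild-type hearts, grouped by the description label. The deposited table holds log2 expression values deposited by the authors, for which the submitters' processing notes name RMA and Affymetrix Power Tools without version or settings. The log2 scale was read from the values, 2.18 to 15.0, and from the method. The table has no detection call. Replicates were numbered in sample order, so numbers pair nothing.

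Gene symbols came from the array annotation and were updated through gene identifiers: of 28815 probe sets 21780 had 1 symbol, 1605 several and 5430 none there. Each measured member had 1 probe set. No probe set carried the symbol Npas2 alone in the annotation used, so the planned comparison of Npas2 with Dbp was not made.

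Differences were tested with limma 3.58.1 in R 4.3.3 (lmFit and eBayes, two-sided, Benjamini-Hochberg over all probe sets, threshold 0.05) on all 9 arrays, with genotype alone, with genotype and title letter, and with their interaction. The fits were also run on simulated data. For the genotype fit those data held no letter effect, so they say nothing of genes that follow the letter. Precision is limited by the number of arrays. On the same arrays the median standard error of the genotype difference was 0.0674 over all probe sets and 0.24 over the 9 members. With the letter in the fit these were 0.0648 and 0.14. Members and lists were chosen with earlier results of these data known. Named were all members, the 3 smallest p-values of a list, and for Dbp the 5 genes most and least like it. Promoter windows came from RefSeq, and motif matches were counted with Python 3.11.15. Alternatives were another normalization, centring, array weights, a variance trend, dim probe sets left out, the letter with and without its prime, Y-linked genes as a covariate and arrays left out.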

Additional observations from a re-analysis of the deposited data

Results flagged for a closer look

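One value stood far from the others of its group. Per1 read 8.42 in wild-type heart 1, against 9.06 to 9.23 in the other wild-type hearts, a gap of 0.785 of the whole range of the group where 0.71 is the 95% limit for 5 samples. It was the 1 such value in 18 groups of hearts examined, and chance alone gives about 1 in 20.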

How the results depend on the processing

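For genotype 0 members passed in any of the 20 other settings, and the sign was kept in all 20 for Per3 (-0.68 to -0.11) and Nr1d2 (-0.31 to -0.02). Signs turned for small differences. Nr1d1 was at -0.013 with quantile normalization, -0.0086 with centring, -0.13 with array weights, -0.080 without wild-type arrays 4 and 5, -0.24 within letter e, and -0.061 to 0.076 with 1 array left out. Clock was at 0.060 with array weights and -0.072 to 0.045 with 1 array left out. Without wild-type arrays 4 and 5 Per2 was at 0.14, Dbp at 0.23, Tef at 0.094 and Hlf at 0.013, and within letter e Per2 was at 0.18, Dbp at 0.20 and Tef at 0.076. Per1 was at -0.10 within letter x. With 1 array left out Dbp ranged from -0.46 to 0.041, Per1 from -0.044 to 0.22, Per2 from -0.31 to -0.026, Tef from -0.40 to -0.080 and Hlf from -0.38 to -0.096. For the letter, 8 members kept their sign with 1 array left out and Per1 did not (-0.058 to 0.31); within Ezh2-deficient hearts Per1 was at -0.11 and within wild-type hearts Nr1d1 at -0.086. The interaction with 1 array left out ranged from -0.45 to 0.0047 for Hlf and from -0.14 to 0.031 for Clock. Both ranges take in fits that keep 1 heart in a combination of genotype and letter.

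Called probe sets for genotype, 10 with all arrays, were 17 with centring, 37 with array weights, 17 with dim probe sets left out, 3 with the Y-linked covariate, 5 without wild-type arrays 4 and 5, 17 with the letter as a block, 27 with letter and prime, and 3 to 15 with 1 array left out. Within letter e and within letter x limma called 0 each (2183 and 3132 at an unadjusted p under 0.05). For the letter they were 13 with quantile normalization, 36 with array weights, 27 with dim probe sets left out and 0 to 5 with 1 array left out, among them 2, 3, 3 and 0 to 1 members. With array weights Per3, Nr1d2 and Dbp passed. Without wild-type heart 3, 4 or 5 the interaction had 0 members passing and 1 to 2 members at an unadjusted p under 0.05. Interaction counts without any other heart are not given, since 1 heart is then left in a combination of genotype and letter. The cause of these shifts was not tested. Averaging probe sets of a gene changed nothing, since each member has 1. No paired analysis was possible because the replicate numbers follow sample order and mark no shared litter or day.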
